A study of Mus musculus with 4 samples.

Results

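The E2F and retinoblastoma family studied here is a set of 10 genes, taken by symbol from the 52125 rows of the deposited gene table. They are the E2F transcription factor genes E2f1, E2f2, E2f3, E2f4, E2f7 and E2f8, the E2F partner gene Tfdp1, and the pocket protein genes Rb1, Rbl1 and Rbl2. Each symbol matched 1 row, and all 10 genes were among the 18285 that passed the filter on low read numbers. The RNA came from the corpus, where the stomach makes its acid, of wild type C57BL/6 mice aged 6 to 8 weeks. In 2 mice, labelled HDT, a dose of 5 mg for every 20 g of body weight had been injected once into the peritoneum to damage the tissue, and in 2 mice, labelled vehicle, it had not. All 4 mice were taken at 48 hr and each gave 1 library. HDT commonly stands for high-dose tamoxifen in studies of gastric injury, but the labels do not spell it out, and one label calls the controls vehicle where another calls them untreated. The tissue was whole, so each value is a sum over epithelial, immune, stromal and muscle cells.

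E2F proteins bind the promoters of genes needed for DNA replication and mitosis, as dimers with a DP protein such as the product of Tfdp1. In resting cells the pocket proteins hold E2F silent, and phosphorylation by the cyclin D and cyclin E kinases releases it as a cell enters S phase. The pocket protein from Rbl2, with E2F4 and the MuvB proteins, forms the DREAM complex, which represses cell cycle genes in quiescence. In the resting corpus, dividing cells lie mainly in the isthmus of each gland, while the parietal and chief cells rarely divide.

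At 48 hr after HDT, 7 of the 10 genes were higher and 0 were lower. The risers were all 3 activator genes (E2f1, E2f2 and E2f3), both atypical repressor genes (E2f7 and E2f8), the partner gene Tfdp1 and 1 of 3 pocket protein genes, Rbl1. The steepest rise was that of E2f8, by 1.94 on the log2 scale, from 10.4 ± 1.04 to 40.2 ± 8.10 CPM (read counts over TMM-scaled library size; SD, n = 2 mice). The genes most tied to quiescence, E2f4 and Rbl2, and the retinoblastoma gene Rb1 itself had no call. Calls are limma's, at a threshold of 0.05 on Benjamini-Hochberg adjusted p-values, taken over the 18285 genes. With limma 0 members were lower at an unadjusted p under 0.05 too, and edgeR and DESeq2 on whole reads also called 0 lower. At that threshold 18.4% of all tested genes were called higher, 19.3% lower and 37.7% in either direction. The median log2 fold change was 0.80 over the 10 members and -0.002 over all genes tested.

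The libraries were alike in depth, at 41536686 to 42674985 whole reads recovered from the deposited values. Within a group the 2 mice differed by more than counting noise: chi-square divided by its degrees of freedom was 15.44 in vehicle and 30.34 in HDT. Scaling matters in these data, since some RNAs fill much of a library. That of the pepsinogen gene Pgc took 4924118 of 41536686 and 5912062 of 42104568 recovered reads in the vehicle libraries. In the HDT libraries it took 2039759 of 42175023 and 1472560 of 42674985. The values as deposited gave a median log2 fold change of 0.526 over all genes, against -0.002 after trimmed mean of M-values (TMM) scaling, and fold changes below are relative to the TMM median unless stated. Vehicle replicate 2 stood apart in 1 respect. The pancreatic acinar genes Cela3b, Cpa1, Prss2 and Pnlip summed to 68.9 CPM there and to 0.136 to 0.199 CPM in the other libraries. Without that library the same count of 7 members was called higher.

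**Figure D1:**
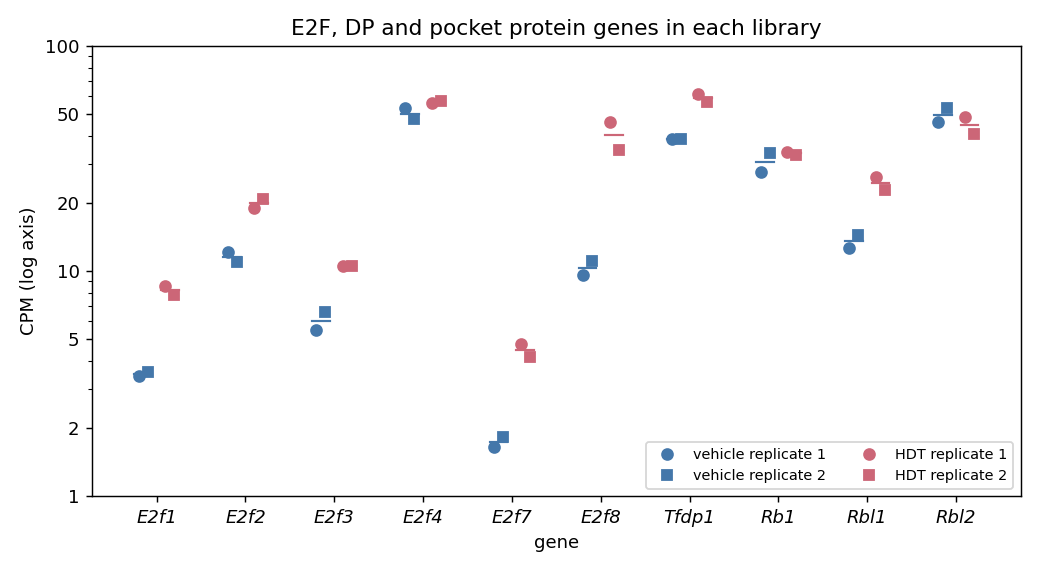
Level of each of the 10 genes in each library, in CPM on a log axis. Circles are replicate 1 and squares replicate 2, blue is vehicle and red is HDT, and short bars are group means. For 8 genes both red points lie above both blue points, and for Rb1 and Rbl2 the groups overlap.

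Promoter sequence was looked at first, since several of the genes that rose are known E2F targets themselves. RefSeq promoter windows on GRCm38.p6, of 250 bases before to 50 bases after a start site, were found for 8 of the 10 genes, in 11 windows. Windows for E2f4 and Rb1 were not used here. An E2F motif was searched as TTTCCCGC, TTTCGCGC, TTTGCCGC or TTTGGCGC, and a cell cycle genes homology region (CHR), the element read by the MuvB protein LIN54, as TTTGAA or TTCGAA, both on either strand. The E2F motif was in 6 of the 11 windows and in 5 of the 8 genes, E2f2, E2f3, E2f7, Rbl1 and Tfdp1. The 2 windows of Tfdp1 overlap and hold the same match. The E2f2 match lies after its start site, at positions 40 to 47. Over all genes of the table, 622 of 23293 windows (2.67%) and 587 of 19143 genes (3.07%) held the E2F motif. Over the genes tested it was in 532 of 15450 windows (3.44%) and 504 of 12110 genes (4.16%). Of the 8 genes with a window 7 rose, 5 of them with the motif and 2 (E2f1 and E2f8) without it, and E2f4 and Rb1, which had no call, could not be scored. A CHR was in 4 member windows, those of E2f2, E2f3, E2f8 and Rbl2, against 4145 (17.8%) of all windows and 2175 (14.1%) of those of tested genes. That of E2f2 was in the second of its windows, whose start site lies inside the gene. The E2F and CHR matches did not overlap each other in any member. Member windows were 50.7 to 80.7% G and C, beside a median of 55.7% over all windows and 62.0% over windows with the E2F motif. A match is a run of letters and not a bound site, and the lack of a match does not show that a site is absent.

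The 250 bases before the start site are shown for 4 genes that rose, with an E2F motif, a CHR or both, and for Rbl2, which had no call, 5′ to 3′ on the gene's strand with E2F and CHR matches in capitals. Their windows are chr13:29986064-29986313 (minus strand) for E2f3 (the first of its windows), chr10:110745189-110745438 (plus strand) for E2f7, chr7:48881597-48881846 (minus strand) for E2f8, chr2:157204535-157204784 (minus strand) for Rbl1 and chr8:91069807-91070056 (plus strand) for Rbl2. In each of these 5 the start site is also the 5′ end of the gene in GENCODE M21.
E2f3: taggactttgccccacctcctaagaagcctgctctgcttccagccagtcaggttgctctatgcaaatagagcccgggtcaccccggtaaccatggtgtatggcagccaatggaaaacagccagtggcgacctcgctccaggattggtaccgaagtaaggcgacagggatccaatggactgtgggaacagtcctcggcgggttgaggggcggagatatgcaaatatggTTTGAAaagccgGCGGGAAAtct
E2f7: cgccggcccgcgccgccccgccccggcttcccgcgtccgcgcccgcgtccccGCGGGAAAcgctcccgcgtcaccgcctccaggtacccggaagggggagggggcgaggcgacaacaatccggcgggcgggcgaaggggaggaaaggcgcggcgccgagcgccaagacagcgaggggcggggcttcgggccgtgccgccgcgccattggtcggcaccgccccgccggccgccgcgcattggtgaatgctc
E2f8: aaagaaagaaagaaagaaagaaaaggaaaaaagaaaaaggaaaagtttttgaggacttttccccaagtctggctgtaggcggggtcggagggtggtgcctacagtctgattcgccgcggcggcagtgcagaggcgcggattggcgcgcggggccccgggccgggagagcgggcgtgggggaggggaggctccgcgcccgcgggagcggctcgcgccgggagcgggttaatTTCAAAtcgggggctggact
Rbl1: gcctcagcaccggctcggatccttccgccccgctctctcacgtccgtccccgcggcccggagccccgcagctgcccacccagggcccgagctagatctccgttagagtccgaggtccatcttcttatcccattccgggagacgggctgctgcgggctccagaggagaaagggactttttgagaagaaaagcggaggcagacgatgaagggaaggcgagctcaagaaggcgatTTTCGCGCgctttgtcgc
Rbl2: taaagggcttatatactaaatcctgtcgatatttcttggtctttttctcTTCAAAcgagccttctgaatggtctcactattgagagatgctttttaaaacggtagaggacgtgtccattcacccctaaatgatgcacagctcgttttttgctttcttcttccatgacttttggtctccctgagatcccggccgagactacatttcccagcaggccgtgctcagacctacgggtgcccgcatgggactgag
Counting back from the start site, E2f3 had a CHR at -23 to -18 and an E2F motif at -11 to -4. The E2F motif of Rbl1 was at -18 to -11, and that of E2f7 was farther off, at -198 to -191. The E2f8 stretch held no E2F match but a CHR at -20 to -15. It did hold attggcgc, which differs from the searched TTTGGCGC in its first letter only. The Rbl2 stretch held 1 CHR, at -201 to -196, and no E2F match. The only E2f1 window had neither motif, but its start site lay 466 bases inside the gene as GENCODE M21 draws it, so it does not cover the sequence ahead of the annotated 5′ end.

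The activator genes encode the E2F proteins that drive S phase entry. E2f1 (chromosome 2, 154559407 to 154569892) was at 3.41 and 3.57 CPM in the vehicle mice and at 8.60 and 7.81 CPM in the HDT mice. Both HDT mice were well above both vehicle mice. The log2 fold change was 1.23 (SE 0.127, limma adjusted p = 0.00022), and 3.34% of tested genes had a larger one. E2f2 (chromosome 4, 136172394 to 136196057) was at 12.2 and 10.9 CPM in vehicle and at 19.1 and 20.9 CPM in HDT. The groups were apart, with a log2 fold change of 0.79 (SE 0.095, limma adjusted p = 0.000487). E2f2 was the most abundant activator RNA in every library, also per exon length. E2f3 (chromosome 13, 29906575 to 29986063) was at 5.49 and 6.57 CPM in vehicle and at 10.6 and 10.5 CPM in HDT. The 2 HDT mice were nearly equal and both above vehicle, with a log2 fold change of 0.81 (SE 0.122, limma adjusted p = 0.0014). Gene positions here and below are those of GENCODE M21 on GRCm38, and all 10 genes are protein coding.

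The atypical genes encode E2F proteins that bind DNA without a DP partner and repress E2F targets later in the cycle. E2f8 (chromosome 7, 48866429 to 48881596) was at 9.63 and 11.1 CPM in vehicle and at 46.0 and 34.5 CPM in HDT. The HDT mice differed from each other by more than the vehicle mice did, yet the lower HDT value was far above the higher vehicle value. The SE of its log2 fold change of 1.94 was 0.147 (limma adjusted p = 0.000171), and 0.86% of tested genes had a larger change. Its promoter, printed above, is one with a CHR and no E2F match. E2f7 (chromosome 10, 110745439 to 110787384) was the scarcest member, at 1.65 and 1.83 CPM in vehicle, from 58 and 63 reads. It stood at 4.75 and 4.16 CPM in HDT, from 244 and 210 reads. The log2 fold change was 1.35 (SE 0.167, limma adjusted p = 0.000546). Together with E2f1 these genes were the 3 members called higher at 2-fold or more, a size reached by 4.07% of all tested genes.

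E2f4 and Tfdp1 were the most abundant members per exon length in both groups. E2f4 (chromosome 8, 105297663 to 105305370), the main partner of pocket proteins in resting cells, was at 52.8 and 47.3 CPM in vehicle and at 55.7 and 57.2 CPM in HDT. Both HDT values were above both vehicle values, by a small margin. The log2 fold change was 0.175 with a 95% interval of 0.008 to 0.342 (limma adjusted p = 0.094, and 0.0422 unadjusted), so E2f4 had no call. Tfdp1 (chromosome 8, 13338751 to 13378448), the DP partner of the E2F proteins other than the atypical ones, was at 38.5 CPM in each vehicle mouse and at 60.9 and 56.3 CPM in HDT. The groups were well apart, with a log2 fold change of 0.605 (SE 0.067, limma adjusted p = 0.0003). In all, 8 of the 10 members had both HDT libraries above both vehicle libraries and 0 had both below, beside 35.3% and 35.5% of all tested genes.

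Among the pocket protein genes 1 of 3 changed. Rbl1 (chromosome 2, 157145893 to 157204534), the family member made mostly in cycling cells and itself an E2F target, was at 12.7 and 14.5 CPM in vehicle and at 26.2 and 22.9 CPM in HDT. The lower HDT value exceeded the higher vehicle value by more than the spread within either group, with a log2 fold change of 0.85 (SE 0.102, limma adjusted p = 0.000464). Rb1 (chromosome 14, 73183673 to 73325822), the retinoblastoma gene, was at 27.5 and 33.3 CPM in vehicle and at 33.9 and 32.8 CPM in HDT. The groups overlapped, and the interval of its log2 fold change of 0.14 ran from -0.083 to 0.366 (limma adjusted p = 0.289). Rbl2 (chromosome 8, 91070057 to 91123844), the pocket protein gene of quiescent cells, was at 45.9 and 52.9 CPM in vehicle and at 48.5 and 40.8 CPM in HDT. Its groups overlapped as well, with a log2 fold change of -0.15 and an interval of -0.394 to 0.098 (limma adjusted p = 0.309). Neither interval shows that the level was unaltered.

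The rises of the 7 called genes did not hang on the scaling, but the standing of E2f4, Rb1 and Rbl2 did. At the deposited scaling all 10 members were called higher, as were 62.8% of all genes tested. There the log2 fold change was 0.71 for E2f4, 0.67 for Rb1 and 0.38 for Rbl2, the last a change of sign from -0.15. Relative to the median of all genes at that scaling, 0.526, these 3 stood at 0.18, 0.15 and -0.14 and E2f8 at 1.95.

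**Figure D2:**
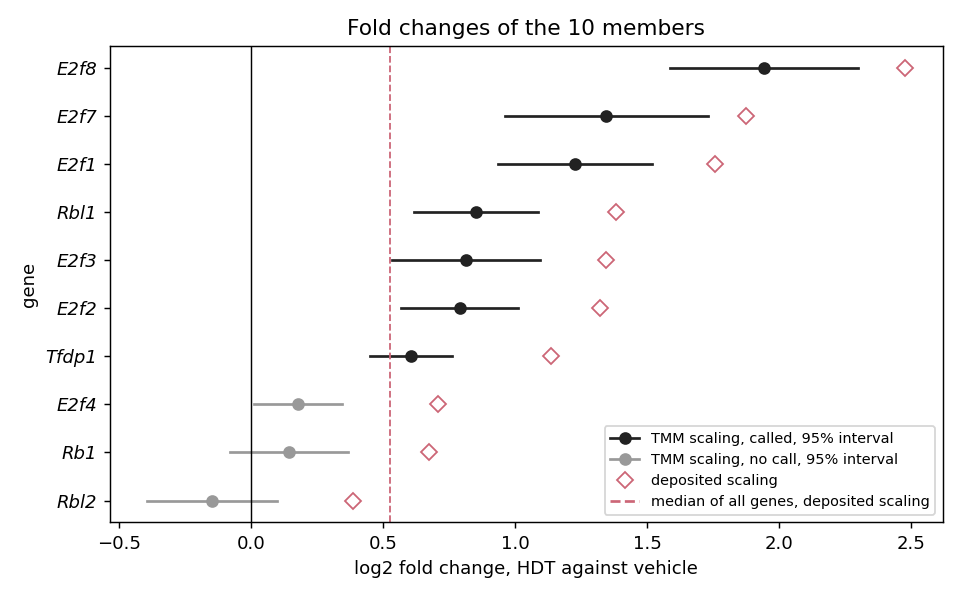
Log2 fold change of each member, HDT against vehicle, with its 95% interval at TMM scaling (black for the 7 genes called, grey for the 3 with no call). Open diamonds give the fold change at the deposited scaling, where the median of all genes (dashed line) is 0.526, and each gene moves right by about that amount.

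Ratios between members within a library do not depend on how libraries are scaled to each other, and they shifted in the same sense. Reads per exon base of Rbl1 were 0.349 and 0.346 of those of Rbl2 in the vehicle mice and 0.683 and 0.708 in the HDT mice. This pocket gene ratio was higher by 1.00 on the log2 scale, with a within-group SD of 0.027. The ratio of Rbl1 to Rb1 was 0.464 and 0.437 in vehicle and 0.776 and 0.700 in HDT, a log2 shift of 0.71. The ratio of Rbl2 to Rb1 went the other way, from 1.33 and 1.26 to 1.14 and 0.988, a log2 shift of -0.29. Among the E2F genes, E2f8 was at 0.0822 and 0.106 of E2f4 in vehicle and at 0.372 and 0.272 in HDT, a shift of 1.77. The shift against E2f4 was 1.18 for E2f7, 1.06 for E2f1, 0.64 for E2f3, 0.61 for E2f2 and 0.43 for Tfdp1. In all 9 ratios computed the 2 groups were separate. The ratios share genes, most of them E2f4, so they are not independent, and the share over other gene pairs was not computed. The exact two-sided permutation test gave p = 0.333 for each, which is the smallest that 2 mice against 2 can give, and adjusting over the 9 ratios leaves it there, so no ratio could pass.

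Levels were compared between genes as CPM per kilobase of merged exons. In vehicle the order was E2f4 at 20.4, Tfdp1 at 10.5, Rbl2 at 6.54, Rb1 at 5.05, E2f2 at 2.37, Rbl1 at 2.27, E2f8 at 1.90, E2f3 at 1.11, E2f1 at 1.11 and E2f7 at 0.193. E2f2 and Rbl1 overlapped over the 2 mice, as did E2f3 and E2f1, and the other neighbours did not. After HDT, E2f8 stood at rank 3 with 7.39, behind E2f4 at 23.0 and Tfdp1 at 15.97, where it had been at rank 7. Rbl2 followed at 5.91, Rb1 at 5.55, Rbl1 at 4.10, E2f2 at 4.09, E2f1 at 2.60, E2f3 at 1.94 and E2f7 at 0.494. The ranges of E2f8 and Rbl2, of Rbl2 and Rb1 and of Rbl1 and E2f2 overlapped there.

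E2f4 gave 76.7% and 73.9% of the summed level per kilobase of the 6 E2F genes in the vehicle mice. In the HDT mice it gave 56.4% and 60.1%, although its own level had no call. The atypical genes E2f7 and E2f8 together went from 6.96% and 8.58% to 22.3% and 17.5%, and the 3 activators from 16.4% and 17.5% to 21.3% and 22.4%. E2f8 made up most of the change, at 6.31% and 7.81% in vehicle and 21.0% and 16.3% in HDT. In the pocket protein sum Rbl1 went from 16.6% and 16.2% to 26.7% and 26.0% while Rbl2 went from 47.6% and 46.8% to 39.0% and 36.8%. The share of Rb1 overlapped between groups, at 35.8% and 37.0% in vehicle and 34.3% and 37.2% in HDT. These shares are given as descriptions, with no test, and they rest on the annotated exon lengths.

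**Figure D3:**
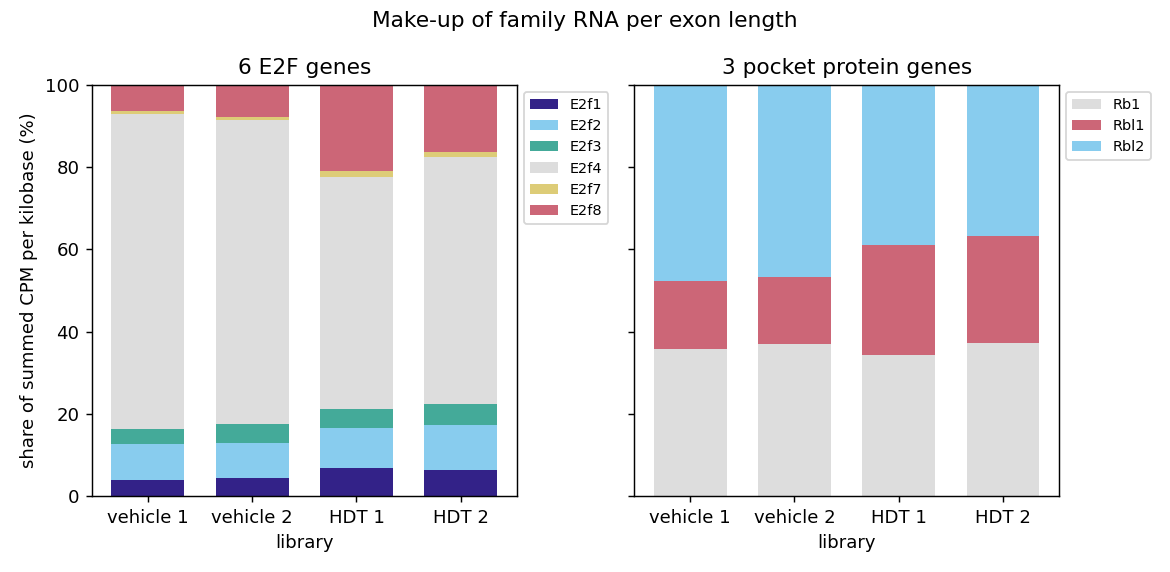
Share of each gene in the summed CPM per kilobase of exons of the 6 E2F genes (left) and the 3 pocket protein genes (right), 1 bar for each library. E2f4 takes 73.9 to 76.7% of the E2F bars in vehicle and 56.4 to 60.1% in HDT, and Rbl1 takes 16.2 to 16.6% and 26.0 to 26.7% of the pocket protein bars.

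Of 3 further family genes, E2f5, E2f6 and Tfdp2, limma called 0 higher and 0 lower, with 1 lower at an unadjusted p under 0.05, and edgeR and DESeq2 called 0 in each direction. E2f5 was at 14.2 and 15.1 CPM in vehicle and at 14.5 and 15.1 CPM in HDT (log2 fold change 0.02, limma adjusted p = 0.904). E2f6, which represses without a pocket protein, was at 12.1 and 12.3 CPM and at 13.6 and 11.2 CPM (log2 fold change 0.015, limma adjusted p = 0.929). Tfdp2, the second DP gene, was at 70.2 and 77.7 CPM in vehicle and at 67.6 and 55.6 CPM in HDT. Its log2 fold change of -0.27 had an adjusted p of 0.0769 in limma. Tfdp2 was called lower in 2 alternative limma fits, without HDT replicate 1 (-0.40, adjusted p = 0.00781) and with a crossed replicate block (0.00275), which pairs mice of unlike replicate number and was chosen after seeing the data. At the deposited scaling, where all genes shift upward, E2f5 was called higher at 0.547 (limma adjusted p = 0.000392) and E2f6 at 0.546 (0.00222), close to the median of 0.526.

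Upstream of the family, the G1 cyclin and kinase genes that inactivate pocket proteins were mostly higher. Of 9 tested, limma called 7 higher and 0 lower (0 also at an unadjusted p under 0.05, and with edgeR and DESeq2), with a median of 0.47. Ccne1, the cyclin E1 gene and an E2F target, went from 2.28 ± 0.269 to 7.63 ± 0.870 CPM (SD, n = 2), a log2 fold change of 1.73. Ccne2 changed by 0.56, the cyclin E kinase gene Cdk2 by 0.97, Cdk6 by 1.197 and Cdk4 by 0.47. The D cyclins moved less. Ccnd2 had 0.235 (limma adjusted p = 0.0308), a call that was lost without either vehicle replicate (0.204 and 0.067), without HDT replicate 1 (0.085) and with the replicate block (0.0972). Ccnd1 had 0.245 (0.051) and Ccnd3 had -0.10 (0.269), and Ccnd3 was called higher at the deposited scaling. Ccnd1 was on the called side in 8 of 16 alternative fits, DESeq2 size factors (limma adjusted p = 0.0461) and edgeR (0.0497) among them.

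Among 7 genes for inhibitors of these kinases 6 were tested, with 3 lower, 1 higher and a median of -0.57. At the deposited scaling 3 were lower and 3 higher. Cdkn1c, which encodes the inhibitor p57, was at 31.4 and 46.1 CPM in vehicle and at 8.91 and 9.99 CPM in HDT, a log2 fold change of -2.01 (SE 0.19, limma adjusted p = 0.000878). Cdkn2b, an inhibitor of the cyclin D kinases, fell by 1.94 on the log2 scale, from 41.3 ± 4.44 to 10.95 ± 3.09 CPM (limma adjusted p = 0.00289), a call lost with the crossed replicate block (0.0612). Cdkn1a, the p53 target gene p21, was at 373 and 328 CPM in vehicle and at 162 and 188 CPM in HDT, a log2 fold change of -0.999 (limma adjusted p = 0.000169). Each was below vehicle in both HDT mice. The higher gene was Cdkn2c, at 0.66 (limma adjusted p = 0.00364).

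The MuvB proteins turn from repressing with the Rbl2 protein to activating with B-Myb and FoxM1 as cells approach mitosis. Of 8 genes of this group 5 were called higher and 1 was called lower (median 0.62). Foxm1 was at 7.39 and 7.38 CPM in vehicle and at 32.2 and 24.2 CPM in HDT, a log2 fold change of 1.92 (limma adjusted p = 4.58e-05), close to that of E2f8. Lin9 changed by 1.02 and the B-Myb gene Mybl2 by 0.93. The lower gene was Lin52, at -0.74 (limma adjusted p = 0.00209), named after its value was seen. At the deposited scaling 0 genes of this group were called lower and 7 higher, and 2 were lower with the 1 CPM filter or the crossed block. Corepressor and chromatin genes whose products join pocket proteins had 7 of 10 higher and 0 lower in limma (0 also at an unadjusted p under 0.05, with edgeR and with DESeq2), with a median of 0.26. Suv39h1, a histone H3 methyltransferase gene, had the largest change at 1.56, ahead of Rbbp7 at 0.84 and the remodeller gene Smarca4 at 0.43. With the replicate block, and also without vehicle replicate 1, 4 of these were called higher.

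All 7 genes for turnover of E2F and pocket proteins were called higher by limma, with a median of 1.31. With edgeR 7 were higher and with DESeq2 6, and 0 were lower with any of these tools or at limma's unadjusted p under 0.05. Ccnf, whose cyclin F targets E2F proteins for destruction, changed by 1.83, the ubiquitin-conjugating enzyme gene Ube2c by 1.675 and the APC/C inhibitor gene Fbxo5 by 1.40. E2F target genes of the G1/S step had 33 of 34 higher and 0 lower in limma (0 also at an unadjusted p under 0.05, with edgeR and with DESeq2), with a median of 1.40. Rrm2, a ribonucleotide reductase subunit gene, changed by 2.09, Uhrf1 by 1.90 and the polymerase gene Pole by 1.90. The gene with no call was Gins2, at 0.19 (limma adjusted p = 0.0675). All 22 DREAM and FoxM1 targets of the G2/M step were higher at 2-fold or more, with a range of 1.19 to 2.22 and a median of 1.83. Bub1b at 2.22, the phosphatase gene Cdc25c at 2.21 and Top2a at 2.21 led them. These lists were drawn up with earlier results of the same libraries known, so their counts are not independent evidence of a direction.

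Against these medians the called members stood at 3 levels. E2f8, at 1.94, lay above the median of the G2/M targets, 1.83, which is inside its interval. E2f7 and E2f1, at 1.35 and 1.23, lay just under the G1/S median of 1.40, and E2f2, E2f3, Rbl1 and Tfdp1, at 0.605 to 0.85, lay below it. In the G1/S list 12 of 27 genes with a promoter window (44.4%) held the E2F motif and 6 (22.2%) a CHR, and in the G2/M list 1 of 17 (5.88%) and 14 of 17 (82.4%). E2f8, with a CHR and no match to the E2F letters searched, has the make-up more common in the second list. Whether either motif bears on its change was not tested. No difference between the promoter sets was tested.

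Of 10 E2F target genes linked to apoptosis 8 were tested, and 3 were called higher and 2 were called lower (median 0.15). At the deposited scaling 7 were higher and 1 lower. Apaf1, the apoptosome scaffold gene, went from 10.8 ± 1.47 to 18.2 ± 0.201 CPM (log2 fold change 0.76, limma adjusted p = 0.00111). Bnip3, which is also a hypoxia and mitophagy gene, fell by 1.41 on the log2 scale. The other lower gene was Pmaip1, the p53 target gene Noxa, at -0.25 (limma adjusted p = 0.0454), and the lower count was 1 in place of 2 in 7 of 16 alternative fits.

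**Figure D4:**
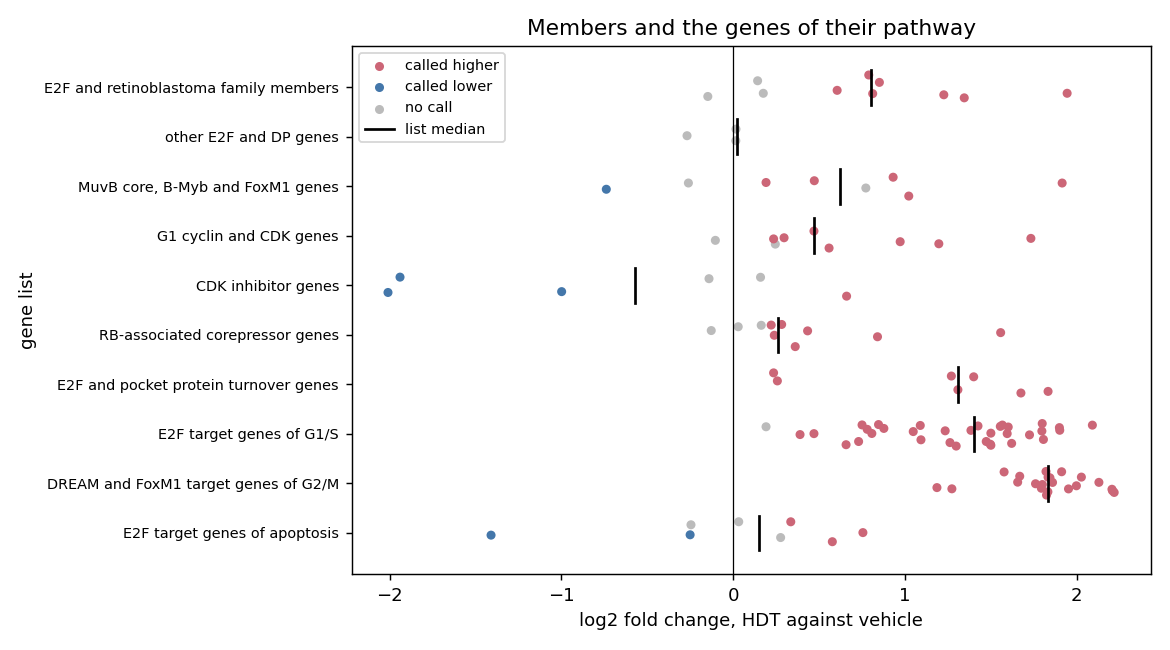
Log2 fold change of each tested gene, HDT against vehicle, in the members (top) and 9 lists of genes around them. Red points were called higher, blue lower and grey had no call, and black bars are list medians, 0.80 for the members, 1.40 for G1/S targets, 1.83 for G2/M targets and -0.57 for the CDK inhibitors.

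The genes with the pattern most like a member over the 4 libraries were found by the root-mean-square difference of log2 CPM, each gene centred on its own mean, among 16988 genes. For E2f8 they were Nek2 (0.0267), a centrosome kinase gene, Cit (0.0294), a cytokinesis kinase gene, and Ddias (0.0448). For E2f1 they were Bcl2a1b (0.0212), Gm28914 (0.026) and the histone gene H2afx (0.0311). Rbl1 was nearest to Tnfrsf14 (0.014), the helicase gene Rtel1 (0.0169) and the microtubule gene Ckap5 (0.017), and Rbl2 to Gtpbp8 (0.0079), Cfap20 (0.0081) and Zfp1 (0.0087). With 4 libraries many genes lie close to any pattern, and some of those named were scarce, such as Bcl2a1b at 0.97 to 2.47 CPM.

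Cell type markers moved between the groups as well, and their part in the members' changes was not tested. More cycling cells and more RNA in each cell cannot be told apart in whole tissue. The 5 parietal cell markers all fell, from a summed 11720 to 12850 CPM in vehicle to 1428 to 1756 CPM in HDT, and 3 of 4 chief cell markers were lower. All 4 pit cell markers were lower too, from a summed 103100 to 106000 CPM in vehicle to 57040 to 70570 CPM in HDT. So were both mucous neck cell markers and 2 of 4 endocrine markers, Ghrl and Sst. The endocrine markers Chga and Chgb had no call and positive log2 fold changes. Chga overlapped between the groups, at 0.23 (limma adjusted p = 0.724). Chgb was at 24.2 and 23.9 CPM in vehicle and at 210 and 90.7 CPM in HDT (limma adjusted p = 0.0743). Myeloid markers had 5 of 6 higher, from 115 to 126 up to 240 to 309 CPM in sum, and fibroblast markers 3 of 4 higher, from 628 to 642 up to 1209 to 1392 CPM. The 6 T cell markers summed to 4.30 to 4.72 CPM in vehicle and 7.55 to 9.34 CPM in HDT. Of these, Cd4 was called higher, from 3.35 ± 0.00897 to 7.65 ± 1.48 CPM, and Trac lower, from 0.560 ± 0.0116 to 0.265 ± 0.0452 CPM, while Cd3e, Cd3d, Cd3g and Cd8a were at or below 0.227 CPM in every library. The 4 B cell markers summed to 0.416 to 0.639 CPM. The erythroid precursor gene Klf1 was at or below 0.227 CPM too. Squamous forestomach markers summed to 1.25 to 2.02 CPM in all libraries, with Trp63 at 0 in 2 of them.

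Some members share sequence with other genes, and the strand setting of the counting is not given in the sources used here. E2f8 overlaps the opposite-strand transcript Gm2788 over 610 exon bases (11.2% of its own), and Gm2788 was itself called higher at 1.32 (limma adjusted p = 0.0316). Gm2788 had 62 and 114 reads in vehicle and 377 and 253 in HDT, beside 339 and 382, and 2363 and 1741, for E2f8 in the same libraries, and its part in the E2f8 value was not tested. Rbl2 overlaps Aktip over 693 bases and Gm45464 over 892 bases. Aktip was called lower at -0.43 (limma adjusted p = 0.00337) with 1702 to 2021 reads, and its part in the Rbl2 value was not tested. Rb1 overlaps Rcbtb2 and Lpar6 over 488 and 408 bases, 8.11% and 6.78% of its exons. Lpar6 was called higher at 0.48 (limma adjusted p = 0.0123) with 300 to 673 reads, beside 966 to 1744 for Rb1. Rcbtb2 had no call, at 0.14 (limma adjusted p = 0.253) with 552 to 965 reads. Their part in the Rb1 value was not tested. Tfdp1 has a near-identical copy, Gm7390, over 755 bases at 99.1% identity, which took 1 to 11 reads in each library.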

How the data were processed

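RNA of the stomach corpus of 4 mice, 2 labelled vehicle and 2 labelled HDT, was sequenced, with 1 mouse to each library. The authors deposited normalized counts, a signal scaled between libraries and not raw reads. The tools named, per the submitters' processing notes, were edgeR, STAR 2.7.1a, Subread 2.0.0 and featureCounts, and the genome build was GRCm38 (mm10). Annotation, strand setting and normalization: not given in the sources used here. Each library's values were whole multiples of the worth of 1 read, 1.1128 to 1.1381, for 100% of values within 0.01 of a whole number, so reads were recovered by division. The members and all gene lists were chosen with earlier results of these data known. Named genes are all members, all genes of a list of at most 3, the 3 called genes of each other list with the largest changes, and Ccnd1, Ccnd2, Ccnd3, Cdk4, Cdk6, Ccne1, Ccne2 and Cdkn1a. Others (Lin52, Cdkn2c, Gins2, Pmaip1, markers and overlapping genes) were named after their values were seen.

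The deposited values were rescaled by TMM factors, filtered with filterByExpr, and tested as log2(value + 1), a pseudocount of 1, with limma 3.58.1 (trended, robust), adjusting over 18285 genes. Fold changes on this scale understate those of low genes. Exact permutation tests were two-sided. Alternatives used edgeR 4.0.16 and DESeq2 1.42.0 on recovered reads, other scalings, filters and pseudocounts, a replicate block, and each library left out. Fits were tested on simulated data. R 4.3.3 and Python 3.11.15 were used. The 2 mice of a group carry the same labels apart from their number.

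Some results are not reported here.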

Additional observations from a re-analysis of the deposited data

How the results depend on the processing

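The 7 members called higher kept their call in all 16 alternative fits, with 0 lower, and E2f4 joined them with the crossed block and E2f4, Rb1 and Rbl2 at the deposited scaling. At that scaling Rbl2 had the opposite sign, at 0.384, as did Tfdp2 at 0.263 and Ccnd3 at 0.428. With each library left out in turn, E2f5 ran from -0.033 (without vehicle replicate 1) to 0.064 (without vehicle replicate 2) and E2f6 from -0.115 (without HDT replicate 1) to 0.169 (without HDT replicate 2), and the cause was not tested. At the deposited scaling both were called higher, at 0.547 and 0.546. Over the named genes around the family, 491 values kept their sign and side of the threshold, 12 gained a call, 5 lost one and 4 reversed. Deviations of replicate 1 from its group mean had a correlation of -0.142 between vehicle and HDT over 18285 genes. With 2 mice a group this cannot show whether equal replicate numbers mark paired mice. With the replicate block 7 members were higher and 0 lower, and 2368 of all genes were higher and 2628 lower, against 3368 and 3521 without it. With the numbers crossed, an alternative chosen after seeing the data, 4197 and 4322 genes were called and 8 members were higher. With 2 mice a group the exact tests cannot go below 0.333, and E2f7, from 58 to 244 reads, is the member most limited by depth.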
